A study of Mus musculus with 4 samples.

Results

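The 10 immediate early genes, Fos, Fosb, Jun, Junb, Egr1, Egr2, Nr4a1, Ier2, Atf3 and Dusp1, were followed in mouse pancreatic islet cells given MOTS-c or a scrambled peptide. The members were 10 of the 22912 gene symbols on the arrays, and they were represented by 12 of the 56605 gene probes, matched through the accession of each probe. MOTS-c, a short peptide encoded within the mitochondrial genome, was compared with a control peptide of the same amino acids in scrambled order. The dispersed cells of handpicked islets came from 4 male C57BL/6 littermates of 60 weeks and received either peptide at 10 μM for 24 h. The RNA went onto 2 one-color arrays per group, labelled as replicates 1 and 2 (scrambled) and 2 and 3 (MOTS-c), so that p-values measure the spread between 4 samples only. No group without peptide and no earlier time was among the samples.

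Immediate early genes are transcribed within minutes of a stimulus without the need for new protein, and most of their transcripts are short lived. Serum response factor with its ETS partners, and CREB, drive many of them after MAP kinase, calcium or cAMP signals, and in beta cells glucose and depolarization are known inducers. Several members encode transcription factors that act on later genes, whereas Dusp1 encodes a phosphatase that switches MAP kinases off. Dispersion of tissue into single cells is itself known to induce these genes, and the cells of both groups were dispersed.

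Of the 10 genes, 0 passed an adjusted p of 0.05 in limma, as did 0% of all 35087 probes tested. At an unadjusted p under 0.05, Atf3 and Nr4a1 were higher and Egr2 was lower in MOTS-c-treated cells, and the other 7 members did not pass. Egr2 alone also reached a 1.5-fold change. The lowest adjusted p of any probe on the arrays was 0.474, so these 3 genes are given as values and not as genes called after adjustment.

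The RefSeq promoter windows of the members, each holding 250 bases before and 50 bases after an annotated start, are shown for the genes whose control elements differ. From the GRCm38.p6 table, windows of 8 of the 10 genes were used, 12 windows in all. The chromosome that holds Egr1 was left out of the member windows, and Ier2 had no usable window, so both are named only. Both strands were searched for the serum response element, the cAMP response element TGACGTCA, the TPA response element TGACTCA, the EGR site GCGGGGGCG and the TATA box TATAAA. Motifs matched in 6 of the 8 genes. Of the 5 Egr2 windows, 4 held a serum response element, with a pair of separate matches on the plus strand of chromosome 10, at chr10:67537484-67537513 and chr10:67537787-67537816, shown with 10 bases to each side. Among the 12 windows used, only windows of Egr2 held this element, which 1.63% of all 32851 windows hold. Whether Egr1 or Ier2 holds it was not examined, nor was sequence more than 250 bases before a start. The element is therefore not shown to be particular to Egr2. Each match lay 72 bases before the nearest annotated start after it, and both lie beyond a more distal Egr2 start, so a short stretch of each is shown. Capitals mark the match in every sequence, read 5′ to 3′.

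Egr2, first element: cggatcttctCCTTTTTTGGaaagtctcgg

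Egr2, second element: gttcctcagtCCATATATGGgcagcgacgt

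For Nr4a1, which differed between the groups in the other direction, the 250 bases before the start lie at chr15:101266596-101266845 on the plus strand. The EGR site, here on the opposite strand, began 60 bases before the start. Fosb also held this motif, 50 bases before its start, and 2.91% of all windows did.

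Nr4a1: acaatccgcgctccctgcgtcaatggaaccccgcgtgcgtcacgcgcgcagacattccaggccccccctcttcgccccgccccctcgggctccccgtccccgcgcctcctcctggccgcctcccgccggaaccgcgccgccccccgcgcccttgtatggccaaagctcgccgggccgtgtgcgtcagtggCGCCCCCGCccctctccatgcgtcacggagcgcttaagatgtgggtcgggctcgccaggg

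For Dusp1 the same stretch lies at chr17:26508473-26508722 on the minus strand. A cAMP response element began 143 bases before the start, a motif of 1.79% of all windows.

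Dusp1: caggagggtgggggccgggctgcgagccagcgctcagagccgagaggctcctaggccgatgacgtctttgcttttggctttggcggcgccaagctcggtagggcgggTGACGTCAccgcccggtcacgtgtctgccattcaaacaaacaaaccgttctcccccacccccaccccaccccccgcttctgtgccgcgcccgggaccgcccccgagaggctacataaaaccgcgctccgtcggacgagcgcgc

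For Fos the stretch lies at chr12:85473640-85473889 on the plus strand. A TATA box began 33 bases before the start, and 13.6% of all windows held one.

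Fos: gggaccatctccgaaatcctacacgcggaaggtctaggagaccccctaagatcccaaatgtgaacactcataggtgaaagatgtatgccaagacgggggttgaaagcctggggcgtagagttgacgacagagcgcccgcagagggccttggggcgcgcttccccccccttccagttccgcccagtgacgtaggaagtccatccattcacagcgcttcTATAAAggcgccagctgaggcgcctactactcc

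Junb held TATAAA at its start, at distance 0. The windows of Atf3 and Jun held none of the 5 motifs. The TPA response element, in 5.20% of all windows, matched in none of the member windows used, which leave out Egr1 and Ier2. These matches describe the letters of the windows only.

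Levels below are log2 signal after quantile normalization, and changes are MOTS-c minus scrambled on the same scale. A gene was followed through its brightest probe, and levels of different genes are not compared because each probe has its own response. With an array left out, its group rests on the remaining array alone and the test has fewer residual degrees of freedom. The p-value can then rise although the change hardly moves, so it does not by itself show dependence on that array.

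FOS and JUN proteins pair to form the AP-1 transcription factor. Fos, the founding member, had log2 signals of 10.23 and 10.55 in scrambled cells (replicates 1 and 2) against 10.70 and 10.20 with MOTS-c (replicates 2 and 3). The groups overlapped, with a MOTS-c array at each end of the range. The change was 0.06 ± 0.23 (SE, n = 2 per group; limma adjusted p = 0.969), with a 95% interval from -0.53 to 0.66.

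Fosb, a relative of Fos whose truncated product is long lived, had log2 signals of 7.44 and 7.54 in scrambled cells against 7.96 and 7.69 with MOTS-c. The treated pair was higher, without overlap. The change of 0.34 ± 0.15 (SE, n = 2 per group) had an unadjusted limma p of 0.0801 and an adjusted p of 0.689. Without MOTS-c replicate 3 it was 0.47 (limma unadjusted p = 0.0449 and adjusted p = 0.813). A second Fosb probe was well above background on 0 of the 4 arrays, at 0.878 to 1.36 times the local background, and was not tested. On each array the log2 ratio of Fosb to Fos was -2.79 and -3.01 in scrambled cells and -2.74 and -2.51 in MOTS-c-treated cells. That ratio was higher on both MOTS-c arrays by 0.27 ± 0.16 (SE; exact permutation p = 0.333, two-sided), and 0.333 is the smallest p that 2 against 2 samples allow.

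Jun, the main partner of Fos, had log2 signals of 12.47 and 12.46 in scrambled cells against 12.47 and 12.33 with MOTS-c. The first 3 of these arrays were nearly equal and MOTS-c replicate 3 was lowest. The change was -0.06 ± 0.13 (SE, n = 2 per group; limma adjusted p = 0.934). Junb, a JUN protein with weaker activation in many settings, had 12.30 and 12.42 in scrambled cells against 12.46 and 12.23 with MOTS-c. Its groups overlapped, with a change of -0.02 ± 0.14 (SE; limma adjusted p = 0.991). A dimmer Junb probe, at 1.42 to 2.55 times local background, gave 5.25 and 5.34 against 5.47 and 4.99, a change of -0.07 ± 0.20 (SE; limma adjusted p = 0.959). The log2 ratio of Junb to Jun within an array changed by 0.05 ± 0.08 (SE; exact permutation p = 0.667).

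Atf3, a CREB family factor that responds to many kinds of cell stress and can dimerize with JUN proteins, had log2 signals of 10.00 and 9.97 in scrambled cells (replicates 1 and 2) against 10.58 and 10.46 with MOTS-c (replicates 2 and 3). The treated pair was clearly higher, and the replicates of each group differed by far less than the groups did. The change of 0.53 ± 0.12 (SE, n = 2 per group), 1.44-fold, had a 95% interval from 0.20 to 0.86, an unadjusted limma p of 0.00937 and an adjusted p of 0.515. Without scrambled replicate 2 the change was 0.51 and the unadjusted p was 0.0558.

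**Figure D1:**
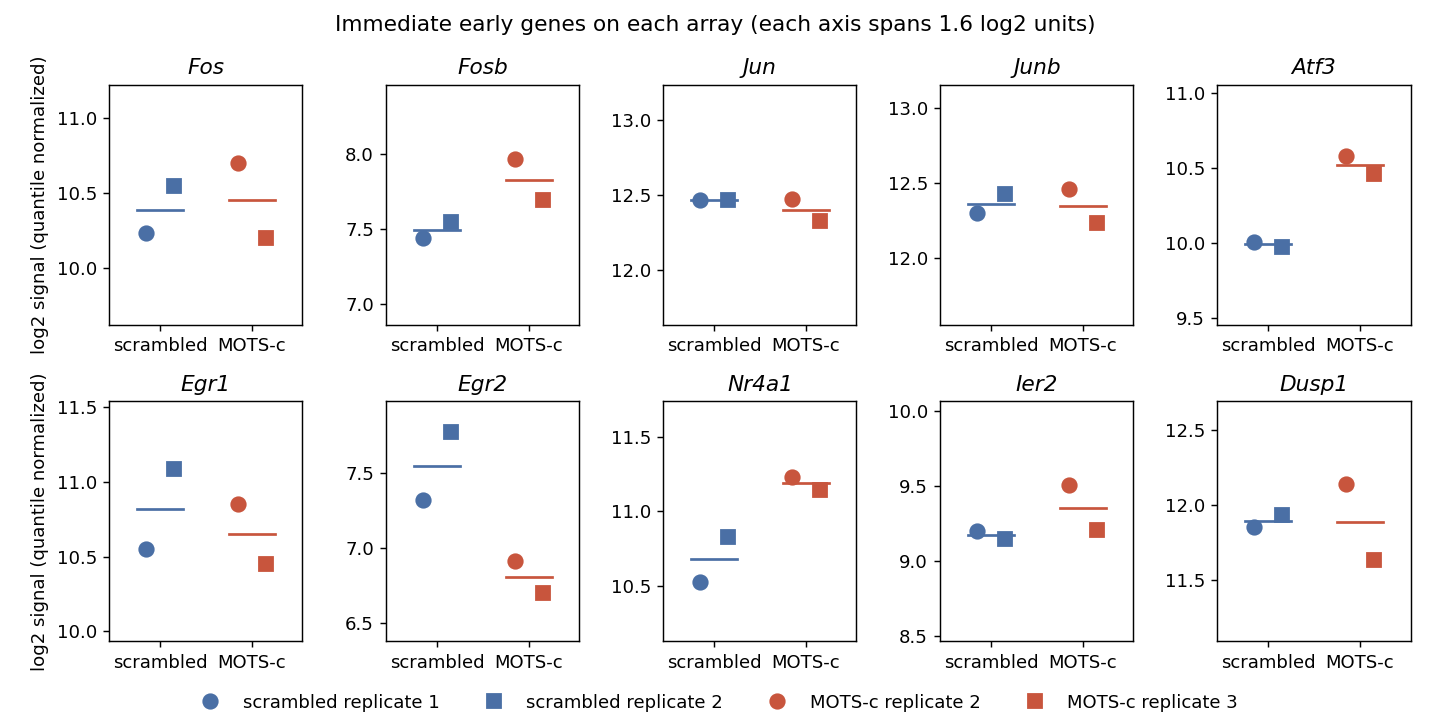
Each panel shows 1 gene, with the quantile normalized log2 signal of its brightest probe on the vertical axis (a span of 1.6 in every panel) and the 2 scrambled (blue) and 2 MOTS-c (red) arrays as points. Short lines are group means. The MOTS-c points all lie above the scrambled points for Fosb, Atf3, Nr4a1 and Ier2, and below them for Egr2.

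EGR proteins are zinc finger factors that bind GC-rich sites. Egr1, the most widely studied and inducible by glucose in beta cells, had log2 signals of 10.55 and 11.09 in scrambled cells against 10.85 and 10.45 with MOTS-c. The groups overlapped, and the scrambled replicates were 0.53 apart, further than the group means. The change was -0.17 ± 0.25 (SE, n = 2 per group; limma adjusted p = 0.905).

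Egr2, best known for its role in myelinating Schwann cells and in lymphoid and myeloid cells, had log2 signals of 7.32 and 7.78 in scrambled cells (replicates 1 and 2) against 6.91 and 6.70 with MOTS-c (replicates 2 and 3). Both MOTS-c arrays were lower than both scrambled arrays. The change of -0.74 ± 0.20 (SE, n = 2 per group), 1.67-fold lower, had a 95% interval from -1.27 to -0.21, an unadjusted limma p of 0.0163 and an adjusted p of 0.539. The probe was well above background on all 4 arrays, at 3.35 to 7.28 times local background. Egr2 also stands in a list that the study selected on these same arrays, so its direction there is not independent of the values given here. Without scrambled replicate 2 the change was -0.52 (unadjusted p = 0.0678), without MOTS-c replicate 3 it was -0.64 (unadjusted p = 0.0600), and normexp background correction gave -0.54, under 1.5-fold.

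Within an array, the log2 ratio of Egr2 to Egr1 was -3.23 and -3.31 in scrambled cells and -3.93 and -3.75 in MOTS-c-treated cells. The ratio was lower on both MOTS-c arrays by a difference of -0.57 ± 0.10 (SE; exact permutation p = 0.333). Only the difference of such a ratio between groups is read here, since each probe has its own brightness.

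Egr2 is known in cell types other than the endocrine cells of the islet, and the markers of 2 of them were set beside it. Of the Schwann markers, S100b was well above background on no array and Sox10 on 1. Of 6 macrophage markers, Adgre1 and Lyz2 were on no array, C1qa changed by -0.67 (limma unadjusted p = 0.0212 and adjusted p = 0.548), and C1qb, Csf1r and Cd68 changed by -0.20, -0.21 and 0.16 without passing. The macrophage sum was 4101 to 5371 on the scrambled arrays and 3498 to 4212 on the MOTS-c arrays. The part of these cells in the Egr2 values was not tested, and in bulk RNA fewer cells of a type and less RNA per cell cannot be told apart. As for the labelled tissue, the endocrine hormone genes Ins1, Ins2, Iapp, Gcg and Sst were well above background on every array. So were the beta cell markers Mafa, Pdx1, Nkx6-1 and G6pc2, whereas Slc2a2 was on 3 arrays and the mature beta cell marker Ucn3 was on no array.

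NR4A proteins are orphan nuclear receptors induced by cAMP and calcium. Nr4a1, also called Nur77, had log2 signals of 10.53 and 10.83 in scrambled cells (replicates 1 and 2) against 11.23 and 11.15 with MOTS-c (replicates 2 and 3). The treated pair was higher, without overlap. The change of 0.51 ± 0.16 (SE, n = 2 per group), 1.42-fold, had a 95% interval from 0.10 to 0.92, an unadjusted limma p of 0.0250 and an adjusted p of 0.563. Its unadjusted p stood above 0.05 when any of 3 arrays was left out. The change was 0.36 without scrambled replicate 1 (limma unadjusted p = 0.128, adjusted p = 0.861), 0.47 without MOTS-c replicate 2 (unadjusted p = 0.0821, adjusted p = 0.430) and 0.55 without MOTS-c replicate 3 (unadjusted p = 0.0524, adjusted p = 0.823). Without scrambled replicate 2 the change was 0.66, past 1.5-fold.

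Ier2, a nuclear protein of the immediate early response, had log2 signals of 9.20 and 9.15 in scrambled cells against 9.51 and 9.21 with MOTS-c. The groups did not overlap, but MOTS-c replicate 3 exceeded scrambled replicate 1 by less than the scrambled replicates differed. The change was 0.18 ± 0.15 (SE, n = 2 per group; limma adjusted p = 0.822). Dusp1, the MAP kinase phosphatase of the set, had 11.85 and 11.93 in scrambled cells against 12.14 and 11.63 with MOTS-c. The MOTS-c arrays lay on either side of both scrambled arrays, and the change was 0.00 ± 0.21 (SE; limma adjusted p = 0.997), with an interval from -0.55 to 0.54.

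**Figure D2:**
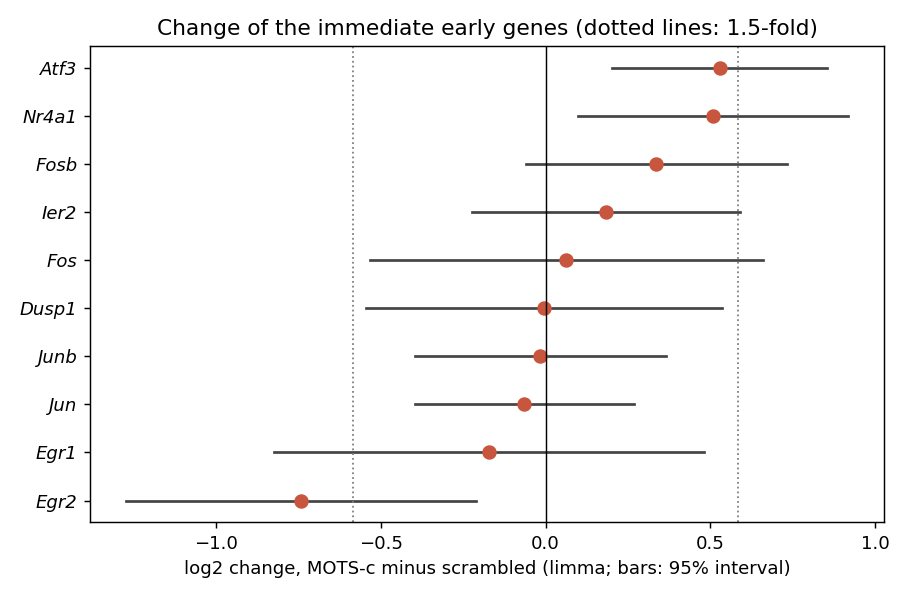
The horizontal axis gives the log2 change, MOTS-c minus scrambled, as a point for each gene with its 95% limma interval, and dotted lines mark 1.5-fold. The intervals of Atf3, Nr4a1 and Egr2 leave out 0, the other 7 hold it, and all 10 adjusted p-values are 0.515 or higher.

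Read against all probes tested, 2 of 10 members were higher at an unadjusted p under 0.05, where 3.03% of all probes were, and 1 was lower, where 4.82% were. With a 1.5-fold change as well, 0 members were higher and 1 was lower, against 1.10% and 2.43% of all probes. In 4 members the groups did not overlap and MOTS-c was higher, against 19.4% of all probes, and in 1 it was lower without overlap, against 18.6%. A positive change was found in 5 of the 10 genes and a negative one in 5. The median change was 0.03, beside 0.01 over all probes, and the median size of change regardless of sign was 0.18, beside 0.14. With so few genes, these shares describe the members and no more.

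**Figure D3:**
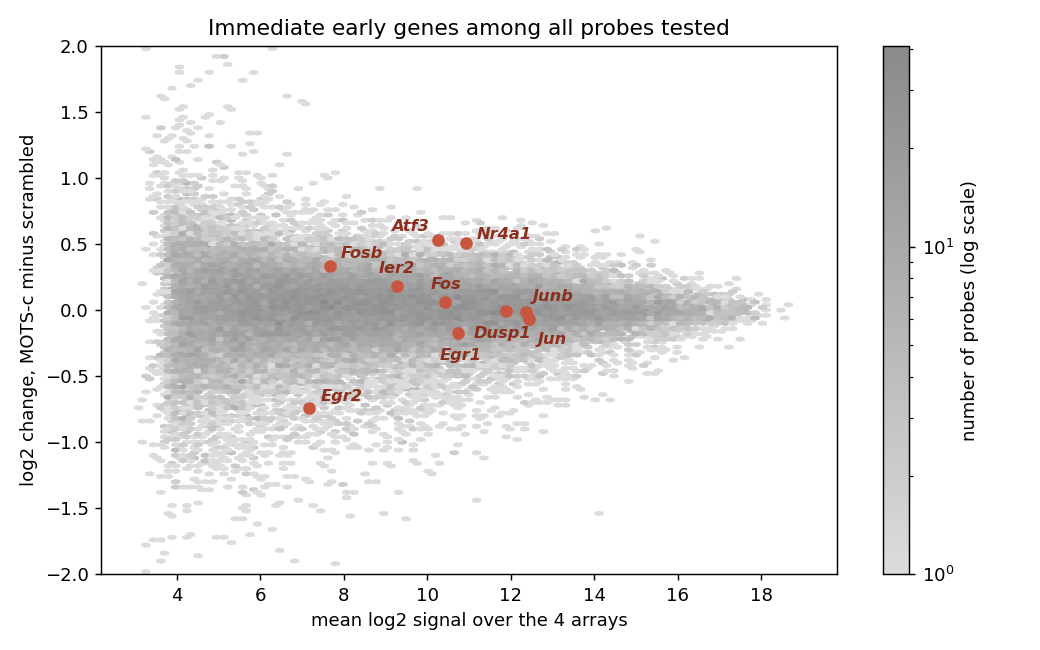
The mean log2 signal over the 4 arrays (horizontal) is plotted against the log2 change, MOTS-c minus scrambled (vertical), for all probes tested, in grey by number, apart from 23 that changed by more than 2 log2 units. Red points are the 10 genes, of which Atf3, Nr4a1 and Egr2 sit at the margins of the cloud and the rest within it.

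The 2 MOTS-c arrays differed in level for these genes. MOTS-c replicate 2 exceeded MOTS-c replicate 3 in 10 of 10 members, by 0.08 to 0.51 (median 0.25), and in 26 of 39 other immediate early genes (median 0.14), while it was higher for 56.5% of all probes (median 0.04). The widest gaps were those of Dusp1 at 0.51, Fos at 0.50 and Egr1 at 0.40. The narrowest were those of Nr4a1 at 0.08 and Atf3 at 0.12, the 2 genes that were higher after MOTS-c at an unadjusted p under 0.05. This gap is part of the spread that enters the p-value of the same gene, so the 2 facts are not independent. Among the scrambled arrays, replicate 2 exceeded replicate 1 in 7 of 10 members (median 0.11), and in 50.7% of all probes. MOTS-c replicate 2 was the highest array for 8 members, and scrambled replicate 2 was the highest for Egr1 and Egr2. For Fos, Jun, Junb, Egr1 and Dusp1 the sign of the change depended on which array was left out.

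**Figure D4:**
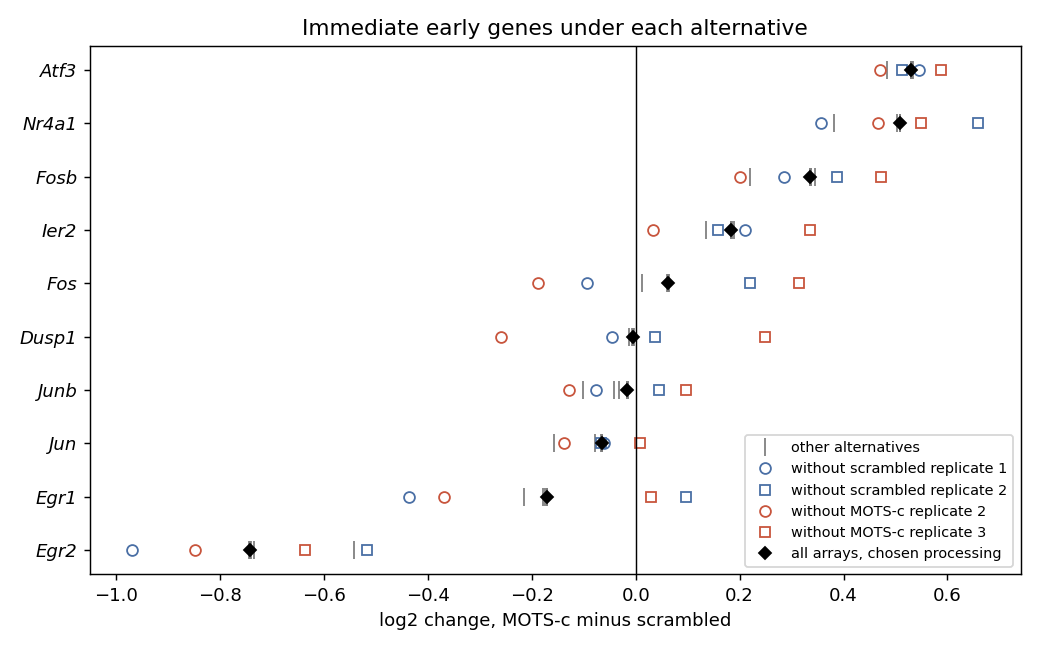
The log2 change, MOTS-c minus scrambled, of each gene (horizontal) is shown for the chosen processing (black diamonds), with 1 array left out (open symbols) and under the other alternatives (grey ticks). Atf3, Nr4a1, Fosb, Ier2 and Egr2 stay on 1 side of 0 throughout, whereas Fos, Dusp1, Junb, Jun and Egr1 have values on both sides when an array is left out.

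Family relatives were taken from a list of 43 other immediate early genes, of which 39 were tested. In the FOS and JUN families, Fosl1 changed by 0.02 and Fosl2 by 0.03, and Jund, a JUN protein that is expressed without a stimulus, by -0.18 and 0.07 on its 2 probes, none passing an unadjusted p of 0.05. Among the EGR relatives, Egr4 changed by -0.12, and the 3 probes of Egr3 were well above background on 0 arrays. Nab2, a corepressor that binds EGR proteins and is induced by them, changed by -0.20 (limma unadjusted p = 0.276 and adjusted p = 0.816).

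Nr4a2, a close relative of Nr4a1, was higher in MOTS-c-treated cells by both of its probes. The brighter had log2 signals of 10.37 and 10.44 in scrambled cells against 10.69 and 10.90 with MOTS-c, a change of 0.39 ± 0.14 (SE, n = 2 per group; limma unadjusted p = 0.0406 and adjusted p = 0.610). The dimmer had 9.88 and 9.89 against 10.32 and 10.43, a change of 0.50 ± 0.12 (SE; limma unadjusted p = 0.0116 and adjusted p = 0.530). Neither probe had overlapping groups. Nr4a3 changed by -0.03 on its tested probe, and its other probe was on no array. Of the 3 receptors, Nr4a1 and Nr4a2 had both MOTS-c values above their scrambled values.

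**Figure D5:**
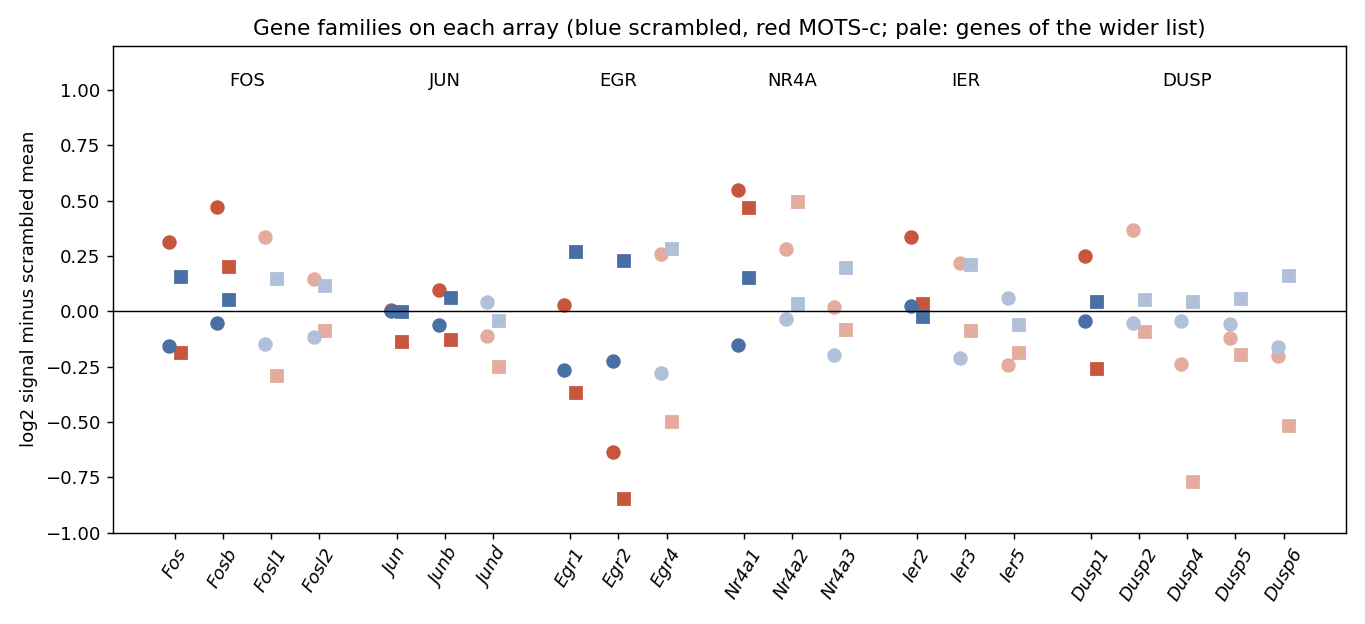
Each gene's log2 signal minus its scrambled mean is shown on the vertical axis for the 2 scrambled (blue) and 2 MOTS-c (red) arrays, with genes grouped by family and pale colours for genes outside the 10 members. Nr4a1, Nr4a2, Fosb and Ier2 lie above both scrambled arrays on both MOTS-c arrays. Egr2, Jund (brightest probe), Ier5, Dusp4, Dusp5 and Dusp6 lie below both scrambled arrays on both MOTS-c arrays. MOTS-c replicate 3 (red squares) is lower than replicate 2 (red circles) for most genes.

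Among the other 39 genes, 4 were higher and 3 lower at an unadjusted p under 0.05, against 3.03% and 4.82% of all probes, and 0 passed an adjusted p of 0.05 in limma. The higher ones were Nr4a2 and Klf2, a zinc finger factor prominent in endothelium, at 0.71 ± 0.25 (SE), Klf4, a related factor, at 0.54 ± 0.18, and Gadd45b, a stress and growth arrest gene, at 0.42 ± 0.15. The limma unadjusted p-values of Klf2, Klf4 and Gadd45b were 0.0368, 0.0318 and 0.0407, with adjusted p-values of 0.600, 0.578 and 0.610. Klf2 had log2 signals of 6.01 and 6.64 in scrambled cells against 7.13 and 6.94 with MOTS-c, without overlap. The lower ones were Maff, a small MAF protein, at -0.69 ± 0.24 (SE), Socs3, an inhibitor of cytokine signaling, at -0.35 ± 0.12, and Plk3, a polo-like kinase, at -0.34 ± 0.12. The limma unadjusted p-values of Maff, Socs3 and Plk3 were 0.0401, 0.0355 and 0.0410, with adjusted p-values of 0.608, 0.593 and 0.610. Maff had 10.64 and 10.77 in scrambled cells against 10.34 and 9.70 with MOTS-c, again without overlap. Klf2 and Maff also passed 1.5-fold, in opposite directions, against 1.10% of all probes higher and 2.43% lower. Without scrambled replicate 1 the change of Klf2 was 0.40 (limma unadjusted p = 0.119, adjusted p = 0.861), and with normexp correction it was 0.35. Without MOTS-c replicate 3 the change of Maff was -0.37 (limma unadjusted p = 0.0921, adjusted p = 0.867). Each of the 7 genes had an unadjusted p above 0.05 with at least 1 of the arrays left out. The median change over the 39 genes was 0.00.

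Of 27 genes upstream of the members, which encode serum response factor, its partners, CREB proteins and the kinases that reach them, all 27 were tested, 0 were higher and 2 were lower at an unadjusted p under 0.05, against 3.03% and 4.82% of all probes, so that the count is near the share over the arrays. Map2k6, a kinase that activates p38, had log2 signals of 10.41 and 10.32 in scrambled cells against 9.63 and 9.49 with MOTS-c, a change of -0.81 ± 0.13 (SE, n = 2 per group; limma unadjusted p = 0.00197 and adjusted p = 0.474). Mapk3, which encodes ERK1, had 13.50 and 13.52 against 13.11 and 13.10, a change of -0.41 ± 0.12 (SE; limma unadjusted p = 0.0202 and adjusted p = 0.544). With any 1 of the 4 arrays left out, the unadjusted p of Mapk3 was above 0.05, from 0.0611 to 0.0964 (adjusted p from 0.398 upward), with changes of -0.42 to -0.40, whereas that of Map2k6 stayed under 0.05. Camk2a, a calcium-dependent kinase, changed by -0.60 on its brighter probe (unadjusted p = 0.0620) and by 0.36 on its dimmer one (unadjusted p = 0.0733), so its probes disagreed in sign. Srf itself changed by 0.06, with log2 signals of 11.25 and 11.33 against 11.36 and 11.35. The median change over the 27 genes was -0.08.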

How the data were processed

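RNA of 4 samples, 2 per group, was hybridized to one-color Agilent SurePrint mouse arrays on 1 slide. Per the file headers, the intensity values that the authors deposited are processed signals of Feature Extraction, corrected for local background but without any normalization across arrays. Another deposited table carries these intensity values with 3 significant digits kept. Each array held 59305 gene spots, of which 61.6% to 65.0% were well above background and 0 were saturated, and the number of arrays limits precision.

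Control spots (3671 per array) and 96 to 131 outlier spots per array were left out, signals were transformed to log2, spots of a probe were averaged, and quantile normalization followed on the 35087 of 56605 probes that were well above background in 2 or more of the samples. limma 3.58.1 in R 4.3.3 compared the groups, with Benjamini-Hochberg adjustment over all probes and 2 residual degrees of freedom to which it added 2.64. A gene was followed through its brightest probe. Symbols came from accessions through the GRCm38.p6 gene table, and 33001 probes had 1 symbol. The array design uses another build, so no probe coordinates are given. Calls used an adjusted p under 0.05, or an unadjusted p under 0.05 with 1.5-fold.

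The members, the lists and the motifs were chosen with earlier results of these data known. Named genes were all 10 members, and of the wider lists those with an unadjusted p under 0.05, those past 1.5-fold and the family relatives of members. Srf and the DUSP and IER genes in the plot of families were added beyond this rule after their values were seen. Some cell type marker results are not reported here. The steps were tested on simulated data. The alternatives were a 75th percentile shift, normexp correction (offset 50, on median signals), the authors' rounded values, no filter, a strict filter (all 4 arrays), each array left out, limma with a trend, the methods' t-test, and averaging all probes that share a gene. Deposited flag columns served only as filters.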

Additional observations from a re-analysis of the deposited data

How the results depend on the processing

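Over 12 alternatives, Atf3 (0.47 to 0.59), Nr4a1 (0.36 to 0.66), Fosb (0.20 to 0.47), Ier2 (0.03 to 0.33) and Egr2 (-0.97 to -0.52) kept the direction of their log2 change. With each array left out in turn, the changes of the others reversed in sign, with ranges of -0.26 to 0.25 for Dusp1, -0.44 to 0.10 for Egr1, -0.19 to 0.31 for Fos, -0.14 to 0.0086 for Jun and -0.13 to 0.10 for Junb. The number of members past an unadjusted p of 0.05 and 1.5-fold, 1 in the chosen processing, was 0 with normexp correction and 0 with the methods' t-test. It was 1 with each array left out, but that gene was Nr4a1 without scrambled replicate 2 and Atf3 without MOTS-c replicate 3, and Egr2 in the other cases. The methods' t-test left Atf3 under an unadjusted p of 0.05 (0.0133) but not Nr4a1 (0.0832) or Egr2 (0.0970), all with adjusted p-values of 0.703 or higher. The number past an adjusted p of 0.05 was 0 under every alternative.

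The median change of the 10 genes ranged from -0.13 (without MOTS-c replicate 2) to 0.28 (without MOTS-c replicate 3) when 1 array was left out. Of the other immediate early genes, 2 passed an unadjusted p of 0.05 with 1.5-fold, against 0 without a filter on dim probes, 0 with the methods' t-test, and 0 (without MOTS-c replicate 3) to 2 with an array left out. It was 1 without scrambled replicate 1, through Klf4, and 1 without scrambled replicate 2, through Klf2. Of the upstream genes, 1 passed, against 2 with the 75th percentile shift, through Camk2a, and 1 to 3 with an array left out, the 3 being without MOTS-c replicate 2 and 2 of them kinases of the CAMK family. The cause of these shifts was not tested. No paired analysis was run, because the labels do not say whether any samples of the 2 groups belong together. The groups share only 1 replicate number, and it is not stated to mark a pair.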
